A study of Mus musculus with 99 samples.

Results

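Reads of 9 ion channel genes were followed in single hair cells of the mouse cochlea: Piezo1 and Piezo2, the TRP channel genes Trpa1, Trpc6, Trpv4 and Trpm7, and the mucolipin genes Mcoln1, Mcoln2 and Mcoln3. They were chosen by name from the 55291 gene symbols of the count table. The rule uses no measured level, but the choice was made with earlier results of these data known. The series asked how far the transcription factor Tbx2 can turn outer hair cells (OHCs) into inner hair cells (IHCs). It comprised 32 OHCs of postnatal day 30, called wild type in the labels, from Slc26a5-CreER/+; Ai9/+ mice, and 67 converted cells (cIHCs) of postnatal day 42 from Slc26a5-CreER/+; Rosa26Tbx2/+ mice. All mice were C57BL/6, and every cell came from a mouse with the inducible Cre driven by Slc26a5, the OHC motor protein prestin. Ai9 is a tdTomato reporter allele, and Rosa26Tbx2 drives ectopic Tbx2 in OHCs. According to the series' design text, cells of both groups glowed with tdTomato and were collected by hand. Full-length cDNA was made with the Smart-Seq HT kit. Age and genotype differ together between the groups, so their parts in any difference cannot be told apart. The protocol text, identical for all samples, mentions endogenous IHCs and iOHCs as the cells picked; groups here follow the titles, and which cells that text describes is not settled by the labels. No title names an endogenous IHC, and the OHCs of an earlier study that the design text mentions were not analysed here.

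The total of assigned counts per cell was 5656512 to 9287413 in OHCs and 4677682 to 13792672 in cIHCs, and the median number of genes with reads was 6068.5 and 8546. Of 8 OHC marker genes, 8 were at least 2-fold lower in cIHCs, and of 8 IHC marker genes, 8 were at least 2-fold higher, with median log2 ratios of -5.75 and 5.63. Of 8 hair cell genes common to both types, 0 were at least 2-fold higher and 3 were lower (Gfi1 at -2.51, Pou4f3 at -1.04 and Lhfpl5 at -1.01), with a median log2 ratio of -0.42. Since every library is a single cell, and no animal is named for any of them, a group counts as 1 sample and no p-value is given. Levels are counts per 1000000 (CPM) after the cells of a group were summed, called pooled CPM, with exact 95% intervals that cover counting error only. These reads carry no molecular identifiers and are not independent molecules. Intervals and upper limits of shares of cells take the cells as independent draws. They cover no difference between animals, and cells of a group may share animals. Cells with Y-linked reads at 10 CPM or more made up 24 of 32 OHCs and 12 of 67 cIHCs, and cells with Xist reads at that level 4 and 55. The groups therefore differ in sex-linked composition too, and values within each kind of cell stand beside the results for the 5 channel genes compared. Among cIHCs, the cells numbered 1 to 12 in the titles had Y-linked reads and those numbered 13 to 67 had Xist reads. Anything else that differed along this numbering cannot be told apart from sex-linked reads in cIHCs, and the labels do not say what the numbering follows. Markers of other cell types had these summed pooled CPM in OHCs and cIHCs: 59.3 and 25.9 for supporting cells, 14.3 and 8.19 for glia, 255.6 and 527.8 for neurons, 4.71 and 53.6 for blood and macrophages, 7.88 and 0.00735 for endothelium, 54.4 and 21.7 for mesenchyme, and 1.85 and 1.38 for the stria vascularis. A few genes carry 2 of these sums. The neuronal sum was mostly Snap25 (182.4 and 216.9 CPM), Nefl (53.9 and 123.6) and Nefm (19.2 and 176.1), with Tubb3 at 0.037 and 10.9 and Prph without a read. In cIHCs, C1qb held 48.2 CPM of the blood and macrophage sum, whereas Cx3cr1 and C1qa had no read. The neuronal sum and the blood and macrophage sum are therefore not taken as a measure of how much of another cell type was present. Other sums were high in single cells. Supporting cell markers had a median of 0 and reached 1662 CPM in OHCs and 865.5 CPM in cIHCs. Mesenchymal markers reached 1315 and 593.9 CPM, with medians of 0 and 0.110. Whether material of other cells was carried over was not tested. Where such markers moved with a channel gene, their part in the result was not tested.

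Hair cells turn deflection of their stereocilia into current through a transduction channel built around TMC proteins, whereas Piezo and TRP channels serve other forms of mechanical, osmotic or chemical sensing. Piezo1 and Piezo2 are large channels opened directly by membrane tension, known from blood vessels and from touch receptors. TRPV4 responds to osmotic swelling and warmth, TRPA1 to irritants and TRPC6 to diacylglycerol, while TRPM7 joins a channel that passes magnesium and calcium to a kinase. The mucolipins are cation channels of lysosomes and endosomes. A gain-of-function mutation of Mcoln3 causes deafness and coat colour changes in the varitint-waddler mouse.

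RefSeq promoter windows on GRCm38.p6, covering the 250 bases before each gene's start, were available for 7 of the 9 genes. Those of the 4 genes that the results turn on are shown, cut where more than 30 bases would lie in a GENCODE exon. Capitals mark the E-box CACGTG, the core of the element bound by lysosomal regulators such as TFEB, and the T-box core GGTGTG or its reverse complement CACACC, the core of the sites that Tbx2 and related factors bind. Mcoln1 (chr8:3500269-3500486, plus strand) and Mcoln3 (chr3:146121541-146121701, plus strand) encode mucolipins, Trpm7 (chr2:126876262-126876511, minus strand) had reads in both groups, and Trpv4 (chr5:114658422-114658671, minus strand) had reads in cIHCs only.
Mcoln1: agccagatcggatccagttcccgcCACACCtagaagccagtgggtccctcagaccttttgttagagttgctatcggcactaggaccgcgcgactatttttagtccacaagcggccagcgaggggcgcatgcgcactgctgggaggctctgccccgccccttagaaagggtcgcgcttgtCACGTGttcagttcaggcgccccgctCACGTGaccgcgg
Mcoln3: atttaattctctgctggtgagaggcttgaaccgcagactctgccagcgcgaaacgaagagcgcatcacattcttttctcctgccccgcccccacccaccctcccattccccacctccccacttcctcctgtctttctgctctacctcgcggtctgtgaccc
Trpm7: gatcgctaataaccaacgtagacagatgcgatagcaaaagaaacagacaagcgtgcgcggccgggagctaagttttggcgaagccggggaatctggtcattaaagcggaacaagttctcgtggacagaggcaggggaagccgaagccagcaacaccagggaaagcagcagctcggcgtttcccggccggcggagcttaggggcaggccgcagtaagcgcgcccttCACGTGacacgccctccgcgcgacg
Trpv4: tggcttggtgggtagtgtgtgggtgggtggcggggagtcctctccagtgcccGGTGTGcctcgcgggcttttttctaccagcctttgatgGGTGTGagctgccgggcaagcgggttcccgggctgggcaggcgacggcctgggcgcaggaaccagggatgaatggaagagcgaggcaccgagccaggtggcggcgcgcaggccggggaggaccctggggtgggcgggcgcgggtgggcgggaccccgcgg

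The Mcoln1 window held 2 E-boxes, starting 71 and 45 bases before the RefSeq start. Each lay within GTCACGTG or its reverse complement CACGTGAC, which contains the E-box. It also held 1 T-box core, 226 bases before the start. The Trpm7 window held 1 E-box, 25 bases before the start, again within that longer element. The Trpv4 window held 2 T-box cores, 198 and 160 bases before the start, and the Mcoln3 window held neither motif. In the Mcoln2 window 1 E-box lay 72 bases before the start, outside GTCACGTG, and the Piezo1 and Trpc6 windows held none of these motifs. Among 32536 distinct windows of that length, searched on both strands, 6.04% held CACGTG and 0.433% held 2 or more. The longer GTCACGTG was in 1.86%, GGTGTG was in 16.3% and occurred at least 2 times in 2.08%, and the longer T-box motif AGGTGTGA was in 1.12% and in none of the 7 windows. The Mcoln3 window lies inside the bounds of the gene in GENCODE, whose start is farther upstream. These are matches of letters and say nothing of binding.

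Of the 9 genes, 8 had reads in 1 or more cells, and 5 reached the level of 1 pooled CPM in 1 or both groups that was required for the comparison. Counts and shares over those 5 are therefore not counts over the whole set. Trpv4 and Mcoln2 were at least 2-fold higher in cIHCs, which is 2 of 5, and 0 of 5 were at least 2-fold lower. Among all 16005 genes compared, 34% were at least 2-fold higher and 19.7% at least 2-fold lower. The log2 ratio of cIHC over OHC had a median of 0.55 over the 5 genes, with Trpv4 and Mcoln2 at lower bounds, and 0.31 over all genes. Mcoln3 and Mcoln1 were lower in cIHCs by less than 2-fold, and Trpm7 was higher by less than 2-fold. A 2-fold change is therefore common in these libraries, and 2 of 5 lies near the share of all genes that were higher.

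**Figure D1:**
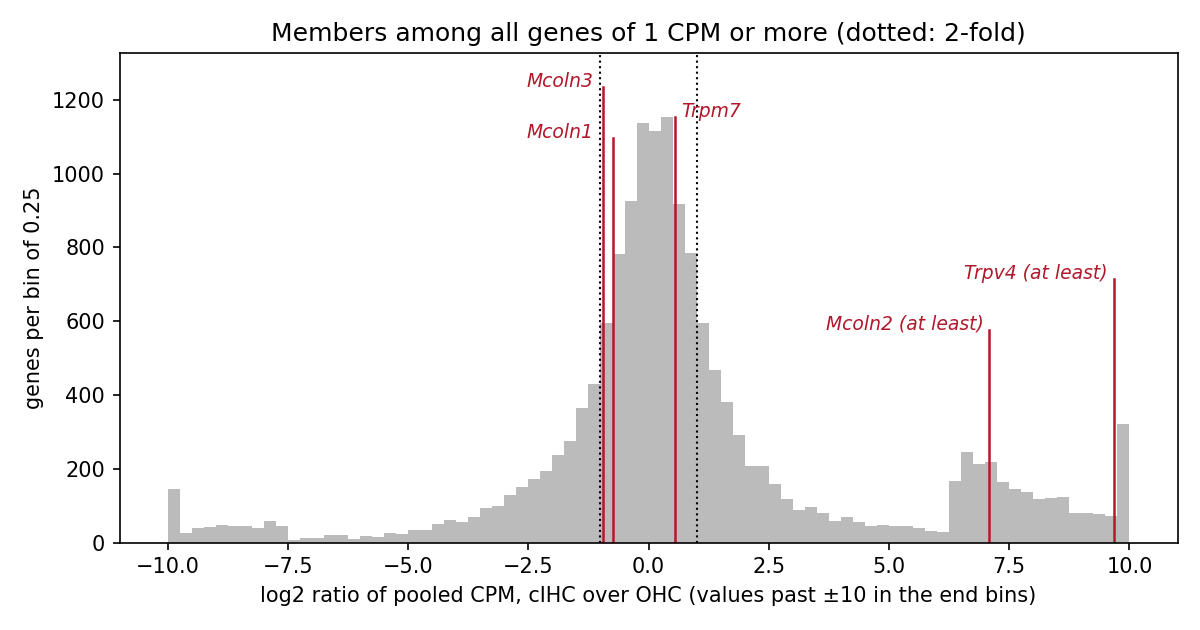
Distribution over 16005 genes of the log2 ratio of pooled CPM (cIHC over OHC; grey bars count genes per bin, dotted lines mark 2-fold), with the 5 channel genes as red lines. Mcoln3, Mcoln1 and Trpm7 lie within 2-fold, whereas Mcoln2 and Trpv4, which had no reads in OHCs, stand at lower bounds of 7.09 and 9.68.

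Mcoln3, which encodes the mucolipin of the varitint-waddler mutation (chr3:146117450-146141806, plus strand; this and the other gene coordinates are from GENCODE M21 on GRCm38, the assembly also called mm10), was the most abundant of the 9 genes in both groups and was lower in cIHCs. The 32 OHCs ran from 81.6 to 2192 CPM per cell (median 845) and the 67 cIHCs from 69.2 to 1269 CPM (median 448). Every cell of both groups had reads, and the groups overlapped over most of their range. Of the OHCs, 29 lay above the cIHC median and 4 above the highest cIHC, whereas 6 cIHCs lay above the OHC median and 1 below the lowest OHC. Pooled levels were 900.5 CPM (896.7 to 904.3) and 468.6 CPM (466.8 to 470.4), a log2 ratio of -0.94 (-0.95 to -0.93), or 1.92-fold lower. The cIHC was the higher cell in 19.2% of the pairs of 1 cIHC and 1 OHC. Relative to the median of all genes the log2 ratio was -1.25. It passed 2-fold under scalings that remove the shift of the typical gene, at -1.13 with TMM factors and -1.14 with median-of-ratios size factors.

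Sex-linked composition moved with this difference. Among OHCs, pooled Mcoln3 was 986.2 CPM in the 24 cells with Y-linked reads (cell median 892), 461.3 CPM in the 4 with Xist reads (396) and 804.4 CPM in the 4 with neither. Among cIHCs it was 713.9 CPM in the 12 cells with Y-linked reads (cell median 642) and 426.0 CPM in the 55 with Xist reads (391). In both groups, cells with Y-linked reads had the higher level. Within cells of 1 kind, the log2 ratio of cIHC over OHC was -0.47 for Y-linked reads and -0.12 for Xist reads, the latter resting on 4 OHCs. The part of composition in the pooled ratio of -0.94 was not tested. Across cells, the Spearman correlation of Mcoln3 with total counts was 0.46 in OHCs and -0.12 in cIHCs. In cIHCs its correlation with Tbx2 was -0.06, over 67 cells that share a group and may share animals.

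**Figure D2:**
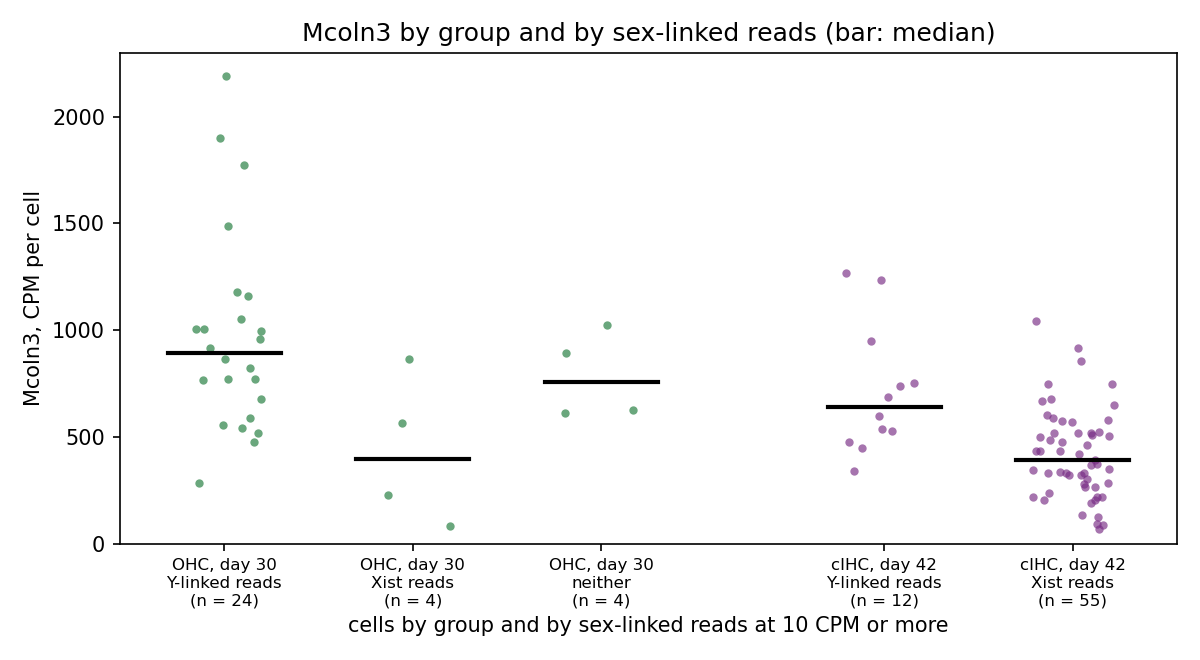
Mcoln3 level in CPM in each cell, by group and by sex-linked reads at 10 CPM or more (points are cells, bars are medians). Cells with Y-linked reads had a median of 892 CPM in OHCs and 642 CPM in cIHCs, above the medians of 396 and 391 CPM in cells with Xist reads.

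Mcoln1, the ubiquitous lysosomal mucolipin, which releases calcium from lysosomes (chr8:3500457-3515232, plus strand), had reads in more cIHCs than OHCs but a lower level in the cells that had them. The OHCs ranged from 0 to 438.6 CPM with a median of 24.4, and the cIHCs from 0 to 194.6 CPM with a median of 51.8. Reads were found in 18 of 32 OHCs (56.25%, exact interval 37.7 to 73.6%) and in 53 of 67 cIHCs (79.1%, 67.4 to 88.1%). In cells with reads the median was 164 CPM in OHCs and 69.8 CPM in cIHCs, and 6 OHCs lay above the highest cIHC. The cell medians and the pooled levels thus point in opposite directions. The pooled level of OHCs was 97.8 CPM (96.6 to 99.1) and that of cIHCs 58.5 CPM (57.8 to 59.1), for a log2 ratio of -0.74 (-0.77 to -0.72). The cIHC was the higher cell in 45.8% of pairs and tied in 9.14%. The share of OHCs with reads was small for this level: the median share over 764 genes of like pooled level was 78.1%, and 1.83% of them had a smaller one. In cIHCs the like-level median was 83.6%. At 10 CPM or more, 16 OHCs and 46 cIHCs had Mcoln1 reads, and after thinning every cell to 5770000 reads the shares were 55.2% and 78.8%. The log2 ratio was -0.19 among cells with Y-linked reads and -0.96 among those with Xist reads.

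Mcoln2 lies 8026 bases beyond the end of Mcoln3 on the same strand, with 0 annotated genes between them (chr3:146149833-146195513), and encodes a mucolipin known best from immune cells. No OHC had a read. By the floor of 3 counts, 0 of 32 cells allows up to 9.38% of OHCs to have reads, and the exact interval reaches 10.9%. These limits concern cells with reads and not cells that express the gene, since even Mcoln1, at 97.8 CPM, had reads in only 18 of 32 OHCs. It had reads in 3 of 67 cIHCs (4.48%, 0.933 to 12.5%), at 78.2, 22.1 and 0.132 CPM. The pooled cIHC level was 1.68 CPM (1.58 to 1.80), at least 136-fold above the floor of 3 counts summed over the OHCs. That level is not a property of the whole group, since 1 cell held 81.2% of the counts, and without that cell the pooled level is under 1 CPM and the gene leaves the comparison (log2 ratio at least 4.65). No read of Trpv4 occurred in these 3 cells, but only 19 of all 67 cIHCs had one, so this shows no separation of the genes. Of the 3, 1 had Y-linked reads (171 Mcoln2 counts) and 2 had Xist reads (745 counts), with log2 ratios of at least 7.01 and 3.95 within those kinds of cell, the latter against a floor over 4 OHCs. Of all genes compared, 9.78% were at least 2-fold higher with no read in OHCs. In the 3 cells with Mcoln2 reads, summed glial markers were 3.15 to 34.9 CPM, against a median of 0 and a highest value of 118.9 in the other 64 cIHCs. Mesenchymal markers had a median of 16.9 CPM (0 to 77.8) in the 3 cells and 0.109 CPM in the others, and blood and macrophage markers ran from 0 to 104.4 CPM with a median of 0, against 7.35 CPM in the others. Their part in the result was not tested.

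**Figure D3:**
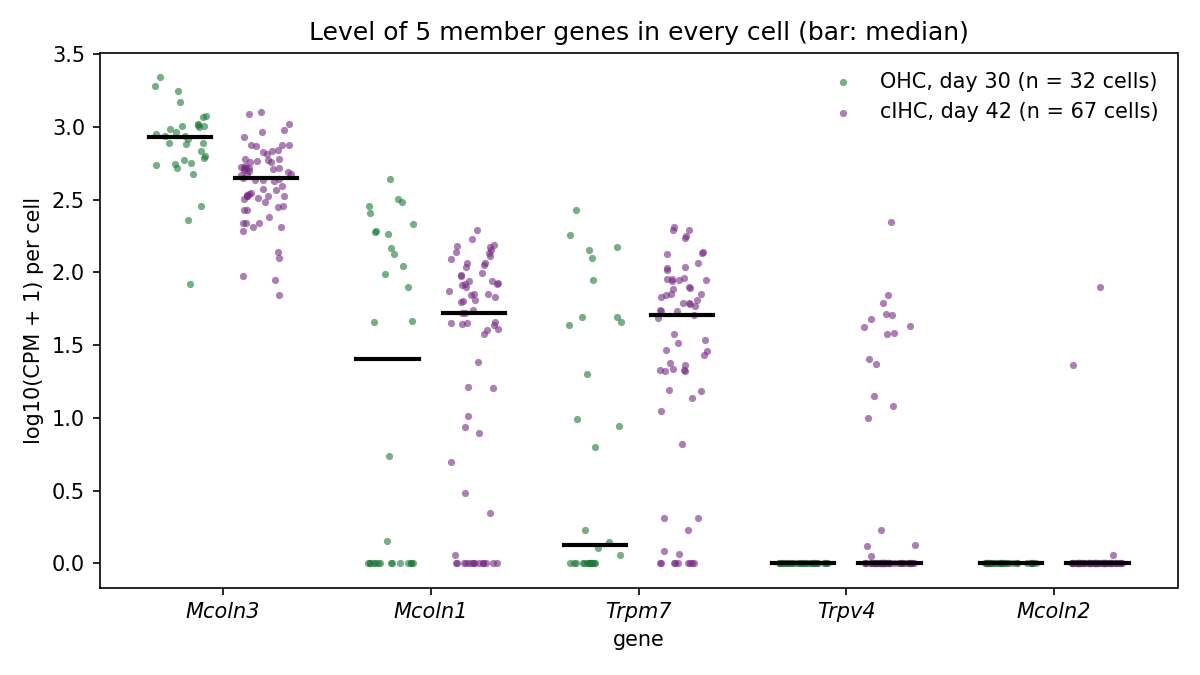
Level in every cell, as log10(CPM + 1), of the 5 channel genes that reached 1 pooled CPM in 1 or both groups (green, 32 OHCs; purple, 67 cIHCs; bars are medians). Mcoln3 had reads in all cells, Mcoln1 and Trpm7 were spread from 0 to 438.6 and 267.7 CPM, and Trpv4 and Mcoln2 stood at 0 in all OHCs and in most cIHCs.

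Trpm7, the channel kinase of magnesium balance (chr2:126791565-126876230, minus strand), was detected in more cIHCs than OHCs and at a modestly higher pooled level. The OHCs ranged from 0 to 267.7 CPM with a median of 0.335, and the cIHCs from 0 to 204.6 CPM with a median of 49.99. Reads were found in 18 of 32 OHCs (56.25%, 37.7 to 73.6%) and 58 of 67 cIHCs (86.6%, 76.0 to 93.7%). The typical OHC was therefore near 0 whereas the typical cIHC was not, although the ranges overlapped. At 10 CPM or more the shares were 34.4% (11 OHCs) and 77.6% (52 cIHCs). Pooled levels were 38.4 CPM (37.6 to 39.1) and 56.3 CPM (55.7 to 56.95), a log2 ratio of 0.55 (0.52 to 0.59). The cIHC was the higher cell in 66.04% of pairs, and 1 OHC held 26.8% of the OHC counts. Shares for genes of like level had medians of 50% in OHCs and 82.1% in cIHCs, close to the shares of Trpm7 in each group. The ratio moved with composition: the pooled level in cells with Y-linked reads was 48.2 CPM for OHCs and 48.6 CPM for cIHCs (log2 ratio 0.01). In cells with Xist reads it was 9.43 CPM over 4 OHCs and 57.7 CPM over 55 cIHCs (log2 ratio 2.61).

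Among the 5 genes compared, the share of cells with reads was at least 20 percentage points higher in cIHCs for 3, by 30.3 points for Trpm7, 28.4 for Trpv4 and 22.9 for Mcoln1. No gene of the 5 had a share that much lower. Over all genes compared, 35.7% had a share at least 20 points higher in cIHCs and 2.94% a share at least 20 points lower, and more genes per cell were detected in cIHCs. Trpm7 and Mcoln1 reads coincided in 11 of 32 OHCs, with 7 cells for each gene alone and 7 with neither. In cIHCs 48 cells had both, 10 had Trpm7 alone, 5 had Mcoln1 alone and 4 had neither. The Spearman correlation of their levels across cells was -0.04 in OHCs and 0.04 in cIHCs. Mcoln1 and Mcoln3 had a correlation of -0.18 in OHCs and 0.27 in cIHCs.

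Trpv4, the osmotically gated channel (chr5:114622152-114658421, minus strand), was detected in cIHCs and not in OHCs. All 32 OHCs were at 0. With cells taken as independent draws, this allows up to 9.38% of OHCs in general to have reads (exact upper limit 10.9%). The 67 cIHCs ranged from 0 to 219.3 CPM with a median of 0, and 19 had reads (28.4%, 18.01 to 40.7%), 14 of them at 10 CPM or more. The median of the 19 cells was 37.0 CPM, and the lowest was 0.119 CPM. Most cIHCs, like all OHCs, had no Trpv4 read. The pooled cIHC level was 10.1 CPM (9.87 to 10.4), at least 818-fold above the floor of 3 counts over the OHCs (log2 ratio at least 9.68). The highest cell held 26.9% of the counts. Thinned to equal depth, 28.8% of cIHCs had reads. The like-level median share was 32.8%, near that of Trpv4. Reads were in 6 of 12 cIHCs with Y-linked reads, at a pooled 34.9 CPM, and in 13 of 55 with Xist reads, at 5.82 CPM, with log2 ratios of at least 11.05 and 5.81.

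Summed markers of blood cells and macrophages had a higher median in cIHCs with Trpv4 reads, mainly through 1 gene, C1qb. Their summed level had a median of 31.8 CPM (0 to 298.3) in the 19 cIHCs with Trpv4 reads and 0.335 CPM (0 to 336.9) in the 48 without. The marker behind these sums was mainly C1qb, a complement subunit, with reads in 13 of the 19 cells, 22 of the 48 and 0 of 32 OHCs. The defining macrophage genes Cx3cr1 and C1qa had no read in any cell. Ptprc and Csf1r had none in the 19 and reads in 2 and 1 of the 48. In the same 19 cells, Hba-a2 and Hbb-bs were at 0, and Hba-a1 and Hbb-bt had reads in 1 cell each. Among the 48, reads were in 6 cells for Hba-a2, 4 for Hbb-bs, 5 for Hba-a1 and 2 for Hbb-bt. The part of these markers in the Trpv4 result was not tested. Endothelial markers were at 0 in all 19, and supporting cell and glial markers had a median of 0 in cells with and without Trpv4 reads.

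**Figure D4:**
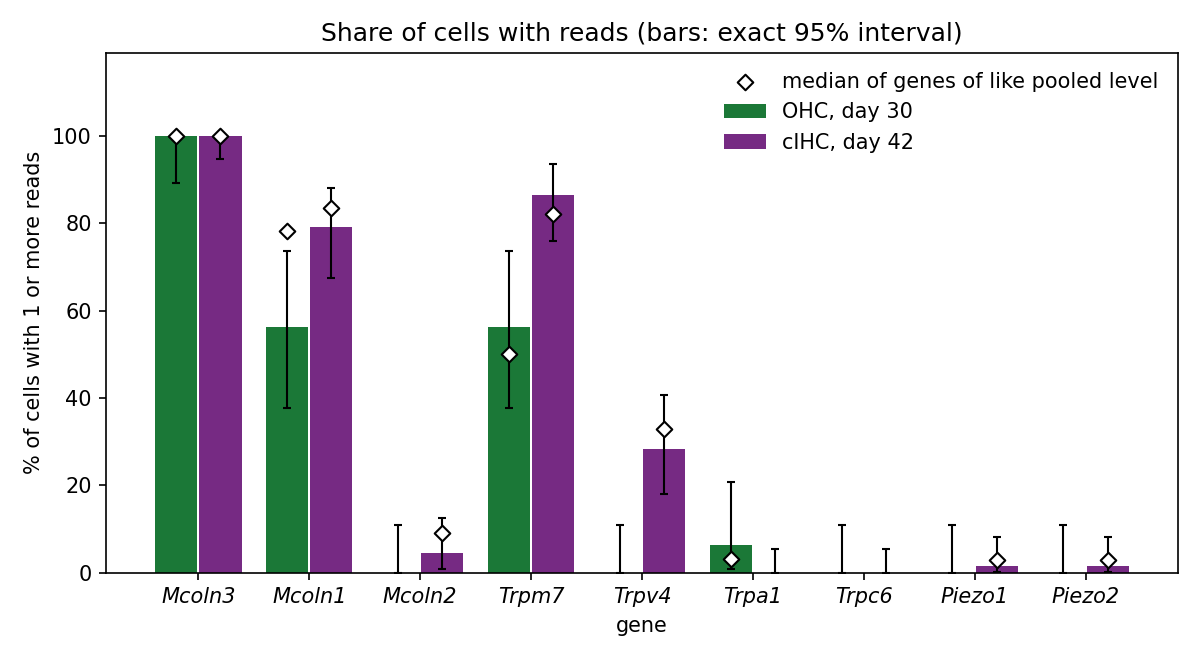
Share of cells with 1 or more reads of each of the 9 genes (green, 32 OHCs; purple, 67 cIHCs; error bars, exact 95% intervals; diamonds, the median share of genes of like pooled level). Mcoln1 in OHCs lies below its like-level genes at 56.25% against 78.1%, and the 4 genes at the right have reads in at most 2 cells of a group. The intervals take cells as independent draws and cover no difference between animals.

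The remaining TRP members were at or near 0. Trpa1, the irritant receptor (chr1:14872648-14918862, minus strand), had 1 count in each of 2 OHCs, at 0.135 and 0.142 CPM, and none in 67 cIHCs, where up to 4.48% of cells with reads is allowed (exact upper limit 5.36%). Both groups lie at or under the floor of 3 counts, so no fold is given. The 2 OHCs had summed glial markers of 0.852 and 174.1 CPM, the latter the highest of all 32 OHCs. Both were among the 4 with neither Y-linked nor Xist reads. Their blood and macrophage markers were at 2.98 and 33.3 CPM, against a median of 0 in the other 30 OHCs. Neuronal markers were at 0 and 99.8 CPM, under the median of 252.9 CPM in the others. The part of these markers was not tested. Trpc6, a diacylglycerol-gated channel (chr9:8544142-8680741, plus strand), had no read in any of the 99 cells, with the same limits for a count of 0 in each group (exact upper limits 10.9% of OHCs and 5.36% of cIHCs with reads).

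The Piezo genes were as sparse. Piezo1 (chr8:122481698-122551329, minus strand) had 25 counts in 1 cIHC, at 1.92 CPM in that cell and 0.046 CPM pooled, and Piezo2 had 144 counts in 1 other cIHC, at 19.6 CPM in that cell and 0.265 CPM pooled. Neither had a read in OHCs. Exons of Piezo1 overlap Ctu2 on the opposite strand, and whether the counting used strand is not given in the sources used here, so reads of the pair cannot be told apart. Supporting cell, glial and endothelial markers were at 0 in both cells. In the Piezo2 cell, blood and macrophage markers were at 19.03 CPM (median of the other cIHCs 4.69) and mesenchymal markers at 3.94 CPM (0.109). In the Piezo1 cell, mesenchymal markers were at 0.692 CPM and stria markers at 0.9997 CPM. Neuronal markers were at 386.2 CPM in the Piezo1 cell and 552.5 CPM in the Piezo2 cell, within the range of the other cIHCs. Their part in the result was not tested.

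Per kilobase of exon, the order of levels was the same in both groups for the genes they share. In OHCs the pooled level was 259.7 CPM per kilobase for Mcoln3, 12.9 for Mcoln1 and 3.39 for Trpm7. In cIHCs it was 135.2 for Mcoln3, 7.74 for Mcoln1, 4.98 for Trpm7, 2.49 for Trpv4 and 0.512 for Mcoln2. The order of these genes was the same per kilobase of the longest transcript. Within single cells Mcoln3 exceeded Mcoln1 in 32 of 32 OHCs and 67 of 67 cIHCs, so the top of the order held cell by cell. Lower down it did not: Mcoln1 exceeded Trpm7 in 16 OHCs and 37 cIHCs, with the reverse in 9 and 26. Trpm7 exceeded Trpv4 in 51 cIHCs, with the reverse in 10.

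The genes whose levels tracked each abundant channel most closely across cells were taken by rank correlation, over 4691 genes in 32 OHCs and 7291 genes in 67 cIHCs. For Mcoln3 they were Gstm5 (0.55), Rpl10 (0.54) and Rps2 (0.54) in OHCs, and Pdia3 (0.46), Tdrp (0.45) and Hspa5 (0.43) in cIHCs. Pdia3 and Hspa5 encode chaperones of the endoplasmic reticulum, and Rpl10 and Rps2 ribosomal proteins. For Mcoln1 they were Bmp7 (0.56), 1110051M20Rik (0.55) and Fkbp3 (0.55) in OHCs, and Atxn7 (0.55), Rhob (0.48) and Mfsd8 (0.44), a lysosomal membrane protein gene, in cIHCs. For Trpm7 they were Aamdc (0.57), Tcp11l2 (0.57) and Ahcyl2 (0.55) in OHCs, and Herc2 (0.45), Pkp2 (0.45) and Odf3b (0.39) in cIHCs. No gene was among the leading 3 in both groups. How often that holds for other genes was not counted, so it shows no difference between the groups. The points share library depth, and the upper 5% of all genes began at 0.307 to 0.310 in OHCs and 0.203 to 0.218 in cIHCs. These are descriptions of the highest values among all genes compared.

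The other TRP channel genes were mostly below 1 CPM or higher in cIHCs. Of 21, 9 reached the comparison, of which 5 were at least 2-fold higher and 0 lower, with a median log2 ratio of 5.70. Over all genes 34% were higher and 19.7% lower, with a median of 0.31, and the counts of the other lists stand against the same shares. Trpm2, a channel opened by ADP-ribose and oxidants, had 6 counts over the OHCs against 25.7 CPM among cIHCs, with reads in 36 of 67 cells (log2 ratio 10.02, 8.90 to 11.47). Trpv2 was at 0.029 and 3.72 CPM, with reads in 13 cIHCs, and the calcium-selective Trpv6 had 1 OHC count and, from 4 cIHCs, a pooled 2.26 CPM (log2 ratio of counts 9.10, 6.62 to 14.40). Trpm3, which falls outside the naming rule and was chosen after its values were seen, was at 2.19 CPM with reads in 2 OHCs and at 113.5 CPM with reads in 64 of 67 cIHCs (log2 ratio 5.70). In OHCs 84.7% of its counts came from 1 cell, and leaving out the highest OHC and the highest cIHC gave a log2 ratio of 8.31. Its exons overlap C330002G04Rik and Gm27151 on the opposite strand. Without the highest cells, Trpv2 was at 7.71 in place of 7.01, and Trpv6 at 6.74 in place of 7.51 with OHC counts set to the floor. In cells with Xist reads, with 4 OHCs, the log2 ratios were 8.04 for Trpm2, 5.26 for Trpm3, 4.94 for Trpv2 and 4.68 for Trpv6. Over all cells, Trpm4 (79.9 and 68.6 CPM), a calcium-activated cation channel with reads in many cells of both groups, stayed within 2-fold. In cells with Xist reads, with 4 OHCs, its log2 ratio was -1.04.

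Other mechanically gated or stretch-linked channels showed little shift as a list, with 2 of 9 at least 2-fold higher, 1 lower and a median log2 ratio of -0.21. Tmc1, the pore subunit of the transduction channel, was at 1054 CPM in OHCs and 1092 CPM in cIHCs, with reads in every cell. Tmem63a, a channel opened by membrane tension, was at 35.2 CPM with reads in 9 of 32 OHCs and had no read in 67 cIHCs (log2 ratio at most -12.64). Its exons overlap 2210411M09Rik on the opposite strand. The higher calls rested on few cells. Of the Kcnk2 counts, 99.95% came from 1 cIHC, and without the highest cell the log2 ratio was -0.78. Tmem150c had 3 counts in OHCs and reads in 6 cIHCs (log2 ratio 7.95, 6.40 to 10.23, and 7.21 without the highest cell), and its exons overlap Tmem150cos on the opposite strand. Of 6 Piezo partner genes only 2 were compared. Pecam1, an endothelial adhesion gene, had 99.1% of its OHC counts in 1 cell and 2 counts in cIHCs (log2 ratio of counts -10.85, -13.90 to -8.9996, and -3.52 with the floor and without the highest cell), and Atp2a2, the calcium pump of the endoplasmic reticulum, was at 115.2 and 95.7 CPM.

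The endolysosomal partners of the mucolipins had counts near the shares of all genes in both directions. Of 11 compared, 3 were at least 2-fold higher, 2 lower and 6 within 2-fold, with a median log2 ratio of -0.27. Pikfyve, the lipid kinase whose product opens mucolipins, had pooled levels of 15.01 and 51.03 CPM (log2 ratio 1.77). Pdcd6, a calcium-binding protein that associates with mucolipin, was at a pooled 90.7 and 294.4 CPM, and Lamp2, a lysosomal membrane protein, at 134.5 and 405.9 CPM (both with reads in all 67 cIHCs). Tpcn1, another endolysosomal cation channel, was lower at 28 and 5.19 CPM (log2 ratio -2.43). Ppp3ca, the catalytic subunit of calcineurin, was lower at a log2 ratio of -1.02, but at 0.23 in cells with Xist reads. Tfeb, a regulator of lysosomal genes, had OHC reads in 1 cell alone, and its log2 ratio was 0.68 with that cell and 7.65 when the highest cell per group was left out. Lamp2 was at 1.59 in all cells and 4.25 in cells with Xist reads, and Tpcn1 at -3.23 there and -1.39 in cells with Y-linked reads. Genes of TRPM7 and magnesium handling were likewise split, with 4 of 10 at least 2-fold higher, 4 lower and a median of -0.05. Cnnm3, with 4 OHC counts, reached 8.59 CPM among cIHCs (log2 ratio 9.02; its exons overlap Gm38033 on the opposite strand), and the magnesium transporter Slc41a1 was at 0.587 and 6.51 CPM (log2 ratio 3.47, 4.98 without the highest cell and 6.05 in cells with Xist reads). Cnnm2, which acts in magnesium export, was lower at 72.4 and 11.2 CPM (log2 ratio -2.69, and -1.56 in cells with Xist reads). Of the genes past 2-fold, Arl15 was at 1.12 in all cells and -0.02 in cells with Xist reads.

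**Figure D5:**
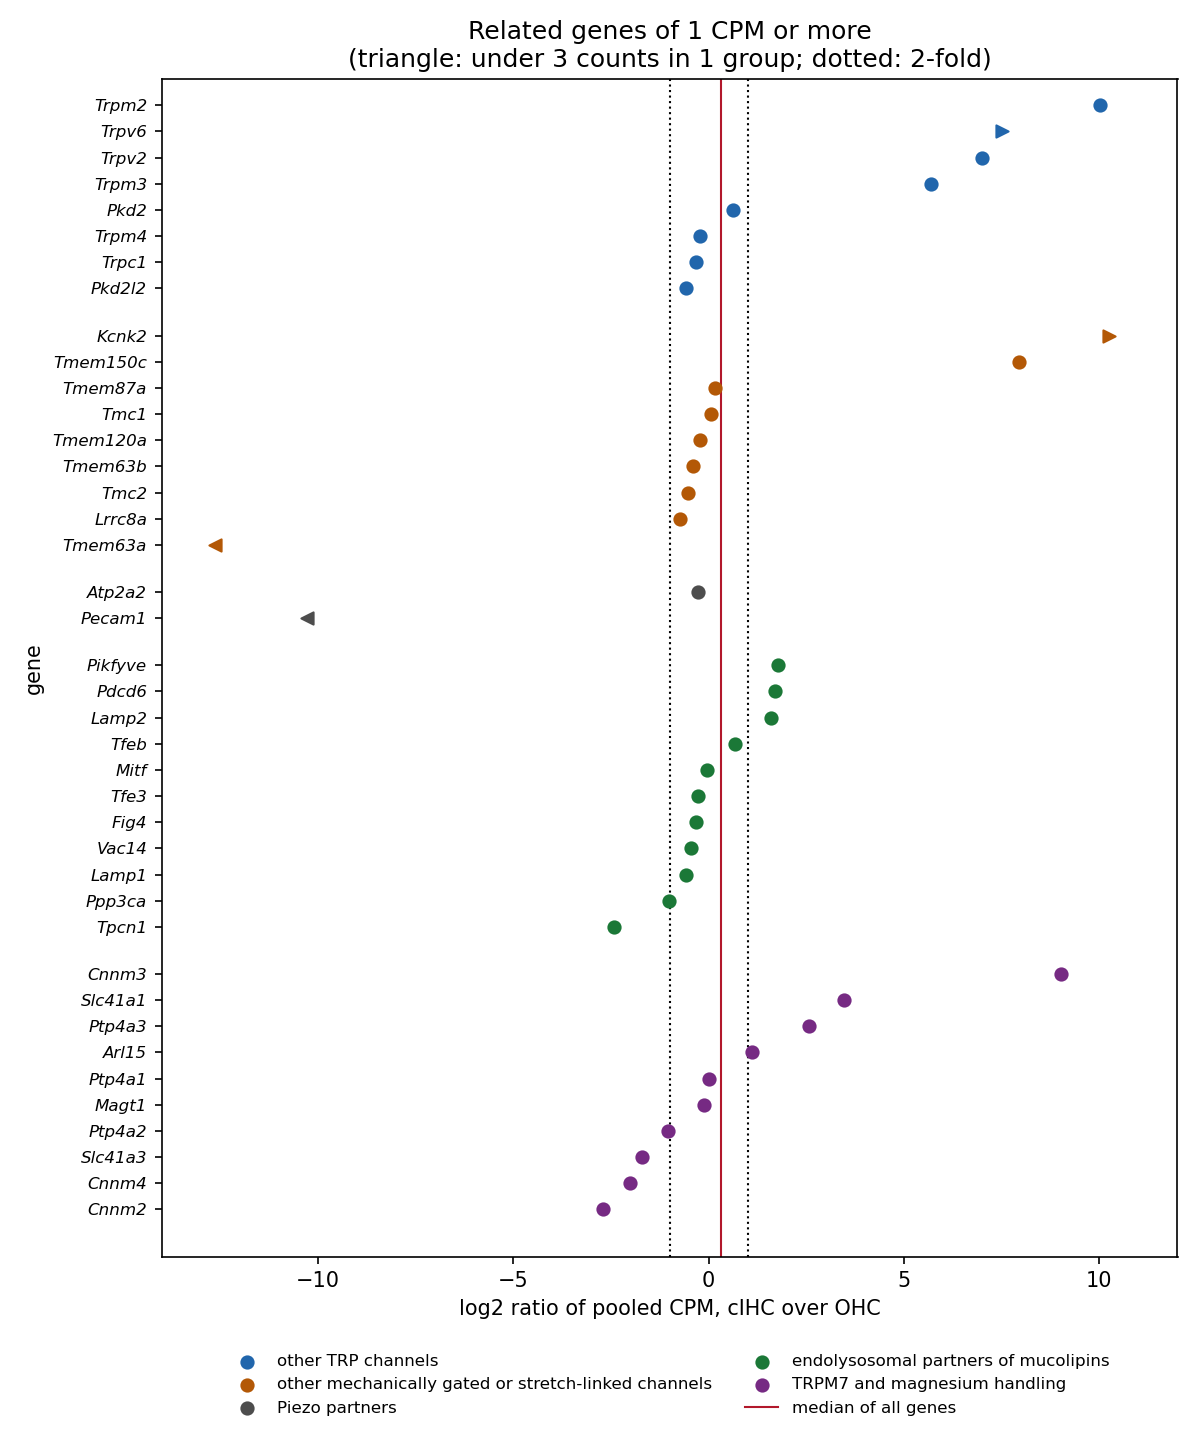
Log2 ratio of pooled CPM (cIHC over OHC) of genes of 5 related lists that reached 1 pooled CPM (points coloured by list; triangles, under 3 counts in 1 group; dotted lines, 2-fold; red line, the median of all genes at 0.31). Kcnk2, Trpm2, Cnnm3, Tmem150c, Trpv6, Trpv2 and Trpm3 lie far to the right, and Tmem63a and Pecam1 far to the left. The other genes lie between these, some within 2-fold and some past it.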

How the data were processed

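The deposited counts are whole numbers per gene symbol and cell, in 1 table; that they are unnormalized was judged from the values. The submitters' processing notes name HISAT2 2.2.1, StringTie 2.2.1, featureCounts 2.0.1 and build mm10, with no role or order; annotation, strand and filters are not given in the sources used here. Columns were matched to cells by title, 0 columns belonged to no sample, and no cell or doublet filter was applied since cells were picked singly. There were 0 identical pairs of cells. Counts were summed per group and divided by the group total (CPM). Ratios are cIHC over OHC; a sum under 3 counts was set to 3 over the group, except that a ratio of 1 to 3 counts is given from the counts. Intervals are exact Poisson, conditional binomial and Clopper-Pearson at 95%. A gene entered the comparison at 1 CPM in 1 or both groups, and 2-fold counts as a call. Genes of like level lie within 0.25 log2 units. Cells were thinned to 5770000 reads, leaving 29 OHCs and 66 cIHCs. Named genes were all 9 members, the 3 largest ratios per related list, and the 3 closest genes per member by Spearman correlation of log2(CPM + 1) among genes of at least 10 CPM with reads in at least 50% of cells; Trpm3, Trpm4, Tmc1, Lamp2, Ppp3ca, Tfeb and Arl15 were chosen after their values were seen. A value for 1 gene of a related list enters that list's counts and median but is not reported here. Members and lists were chosen with earlier results of these data known. Exons came from GENCODE M21, holding 96.4% of the symbols, and promoters from RefSeq (GRCm38.p6). Ratios were tested on simulated negative binomial counts. Intervals of ratios were tested only on independent Poisson counts, the model they assume, so that test does not show how they perform on these data. Cells of a group differed by far more than counting error. The lowest chi-square per degree of freedom between 2 cells was 433 in OHCs and 191 in cIHCs. Tools were Python 3.11.15, numpy 2.4.6, pandas 2.3.3, scipy 1.17.1, matplotlib 3.10.9, R 4.3.3 and edgeR 4.0.16, which gave TMM factors of 0.936 and 1.07. Alternatives covered pooling, single cells, scaling, totals, sex-linked composition, depth, filters and thresholds.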

Additional observations from a re-analysis of the deposited data

How the results depend on the processing

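Of 66 values of the channel genes' log2 ratios under alternatives, 65 kept their sign; the exception was Piezo1, at -0.95 in cells with Xist reads, where the floor lies above its level. Piezo1, Piezo2, Trpv4 and Mcoln2 had no OHC read, so their OHC side was the floor under every alternative. Their ratios could change sign only where the cIHC level fell under that floor, so their kept signs say little. In that limited sense, Trpv4 was at least 2-fold higher under every alternative run. The count of channel genes at least 2-fold higher, 2 in the report, was 1 without the highest cell of each gene and 1 at a minimum of 10 CPM (Trpv4 in both), 4 with no filter on level (adding Piezo1 and Piezo2), 3 in cells with Y-linked reads (adding Piezo2) and 3 in cells with Xist reads (adding Trpm7); the shares of all genes were 43.2, 26.3, 42, 33.6 and 55%. The count of genes at least 2-fold lower, 0 in the report, was 1 (Mcoln3) with TMM factors, 1 with median-of-ratios size factors and 1 with totals that leave out the 13 most abundant genes; the log2 ratios there were -1.13, -1.14 and -1.02. Over the alternatives, log2 ratios ran from -1.14 to -0.12 for Mcoln3, -0.96 to -0.19 for Mcoln1, 0.01 to 2.61 for Trpm7, 5.81 to 11.05 for Trpv4 and 3.95 to 7.09 for Mcoln2. The ends at Xist or Y-linked reads rest on 4 and 24 OHCs. The median of all genes moved from 0.31 to 0.10 with TMM factors, 0.69 without the highest cells and 1.65 in cells with Xist reads; the cause was not tested. Of 36 shares of cells, 33 stayed within their interval. The shares of genes with no read in a group are 0 under either setting and could not leave it. No paired analysis was possible because the titles name no animal or pair, and the results come from no test.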
